A study of Mus musculus with 12 samples.

Results

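The 36 genes described here encode regulators of autophagy and the lysosome. They are the autophagy initiation kinases and their scaffolds, the lipid kinase complex, the proteins that build the autophagosome membrane, the Atg8 conjugation system and its substrates, 3 cargo receptors, 3 transcription factors of the TFEB family and 2 lysosomal membrane proteins. They were chosen by name and not by a cutoff on their expression, with earlier results of these data known, and each was found by its Ensembl identifier among the 55536 features of the count table.

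The data are RNA-seq of activated mouse splenic B cells, with 3 mice of each genotype. Each mouse contributed a culture in LPS and IL-4 (LPS-IL-4), a stimulus for class switching to IgG1, and a culture in LPS, BAFF and TGFβ (LPS-BAFF-TGFβ), a stimulus for switching to IgG2b, so that 12 libraries formed 4 groups of 3. All cultures lasted 48 h. The comparison of genotypes asks what loss of Pdap1 does to the transcriptome of activated B cells, and the comparison of stimulations shows how the same genes respond to the cytokines.

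Mice of both genotypes were on a C57BL/6 background, were between 7 and 27 weeks old and carried 1 copy of a Cre allele that is active in B cells. Only the Pdap1-deficient mice (Pdap1F/F) also carried the floxed alleles, in which Cre removes exon 2. The concentrations were 5 µg/ml LPS, 5 ng/ml IL-4, 2 ng/ml TGFβ and 10 ng/ml BAFF. The labels also give CH12, a B lymphoma line, as the cell line of each sample, whereas the study's methods describe cultured primary splenocytes. The 6 B cell markers (Cd79a, Cd79b, Ms4a1, Pax5, Cd22 and Ebf1) were counted in every library, with a summed level between 2108 and 3293 CPM.

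Autophagy encloses cytoplasm in a double membrane and delivers it to the lysosome for degradation. The Ulk kinase complex starts the process, a class III phosphatidylinositol 3-kinase complex marks the site, and Wipi, Atg2 and Atg9 proteins expand the membrane. Ubiquitin-like conjugation then attaches Atg8 proteins (LC3 and GABARAP) to the membrane, where cargo receptors such as p62 dock. TFEB, TFE3 and MITF bind E-box sequences and activate genes of lysosomes and autophagy, and in stressed cells Atf4 and Ddit3 (CHOP) are known activators of several autophagy genes. In B cells, autophagy is known for its part in the survival of memory and plasma cells.

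Promoter sequence is shown for 4 genes on which the results turn. Ulk2 and Mitf had the lowest summed ranks of p over both genotype comparisons. Sqstm1 and Lamp1 were added after their values were seen, as the member of lowest p by genotype with LPS-IL-4 and the member with the most negative log2 value for LPS-BAFF-TGFβ in control mice. The windows are RefSeq promoter windows of 300 bases on GRCm38.p6, read 5′ to 3′ on the gene's strand, at chr11:61855043-61855342 (minus strand) for Ulk2, chr6:97806808-97807107 (plus strand) for Mitf, chr11:50210771-50211070 (minus strand) for Sqstm1 and chr8:13158911-13159210 (plus strand) for Lamp1. Capitals mark matches to the motifs named below.
Ulk2: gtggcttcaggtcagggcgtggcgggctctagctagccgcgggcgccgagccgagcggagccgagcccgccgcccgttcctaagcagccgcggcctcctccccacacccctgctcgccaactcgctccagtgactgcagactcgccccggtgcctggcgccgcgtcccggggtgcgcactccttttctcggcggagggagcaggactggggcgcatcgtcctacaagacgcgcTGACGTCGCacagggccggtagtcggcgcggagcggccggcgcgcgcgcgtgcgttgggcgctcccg
Mitf: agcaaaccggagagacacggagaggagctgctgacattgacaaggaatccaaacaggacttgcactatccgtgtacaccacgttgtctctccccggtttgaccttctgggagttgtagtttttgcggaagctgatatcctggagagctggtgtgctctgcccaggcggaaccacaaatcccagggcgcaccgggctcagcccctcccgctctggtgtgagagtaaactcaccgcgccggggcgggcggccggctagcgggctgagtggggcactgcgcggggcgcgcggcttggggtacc
Sqstm1: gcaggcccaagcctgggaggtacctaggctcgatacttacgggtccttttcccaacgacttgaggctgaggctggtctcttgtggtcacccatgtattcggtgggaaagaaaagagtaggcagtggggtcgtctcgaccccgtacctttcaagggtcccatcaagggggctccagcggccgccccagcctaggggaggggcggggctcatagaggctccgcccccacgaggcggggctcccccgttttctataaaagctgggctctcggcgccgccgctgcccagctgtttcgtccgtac
Lamp1: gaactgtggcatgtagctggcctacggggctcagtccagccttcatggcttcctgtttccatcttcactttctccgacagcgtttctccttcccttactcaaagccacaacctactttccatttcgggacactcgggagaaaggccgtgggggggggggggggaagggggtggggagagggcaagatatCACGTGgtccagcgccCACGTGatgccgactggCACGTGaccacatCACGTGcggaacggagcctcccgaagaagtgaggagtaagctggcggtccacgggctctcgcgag

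The Lamp1 window held 4 copies of the E-box CACGTG, at positions -61, -45, -28 and -15 from the RefSeq start. This E-box was present in 5 of the 30 members with a window (Atg14, Atg3, Atg5, Atg7 and Lamp1) and in 7.24% of 27025 windows of all genes. Its extended form TCACGTGA, the core of the lysosomal CLEAR element, was found in 1 member, Atg3, and in 1.01% of all windows. The Ulk2 window held 1 match to the antioxidant response element core TGACNNNGC at position -17. That motif was found in 3 members (Ulk2, Atg13 and Map1lc3b) and in 12.5% of all windows. TGATGNAA, the C/EBP-ATF response element read by Atf4, was found in 0 of the 30 members and in 4.06% of all windows. Both strands were searched, and TCACGTGA contains the E-box, so that each match to it counts for both. The searched windows of Mitf and Sqstm1 held no match to these letters. Nor did that of Tfeb, which was also looked at after its values were seen and is not printed. Mitf and Tfeb each have 3 listed windows, and only the window nearest the annotated gene start was searched for each member. Over all genes, the first listed window of a gene was searched.

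Per length of exon, the members spanned a wide range of levels. The highest means over the 12 libraries were 36.1 CPM per kilobase for Gabarap, an Atg8 protein, 32.9 for Lamp1, an abundant glycoprotein of the lysosomal membrane, and 31.7 for Sqstm1, which encodes p62. Atg5 (21.6 CPM per kilobase) and Atg3 (20.3), both of the conjugation system, followed. At the lower end stood Map1lc3a with 0.876 CPM per kilobase, Mitf with 0.499 and Wipi1 with 0.213. Among the 3 TFEB family genes, Tfeb had a mean of 8.55 CPM per kilobase, Tfe3 3.01 and Mitf 0.499. Ulk2 (4.88 CPM per kilobase) stood above its paralog Ulk1 (1.84), and the ranges of these 2 genes did not overlap. In the order of the 36 means, each gene's range over the 12 libraries overlapped that of its lower neighbour, with the exception of Wipi1 and Atg2a.

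**Figure D1:**
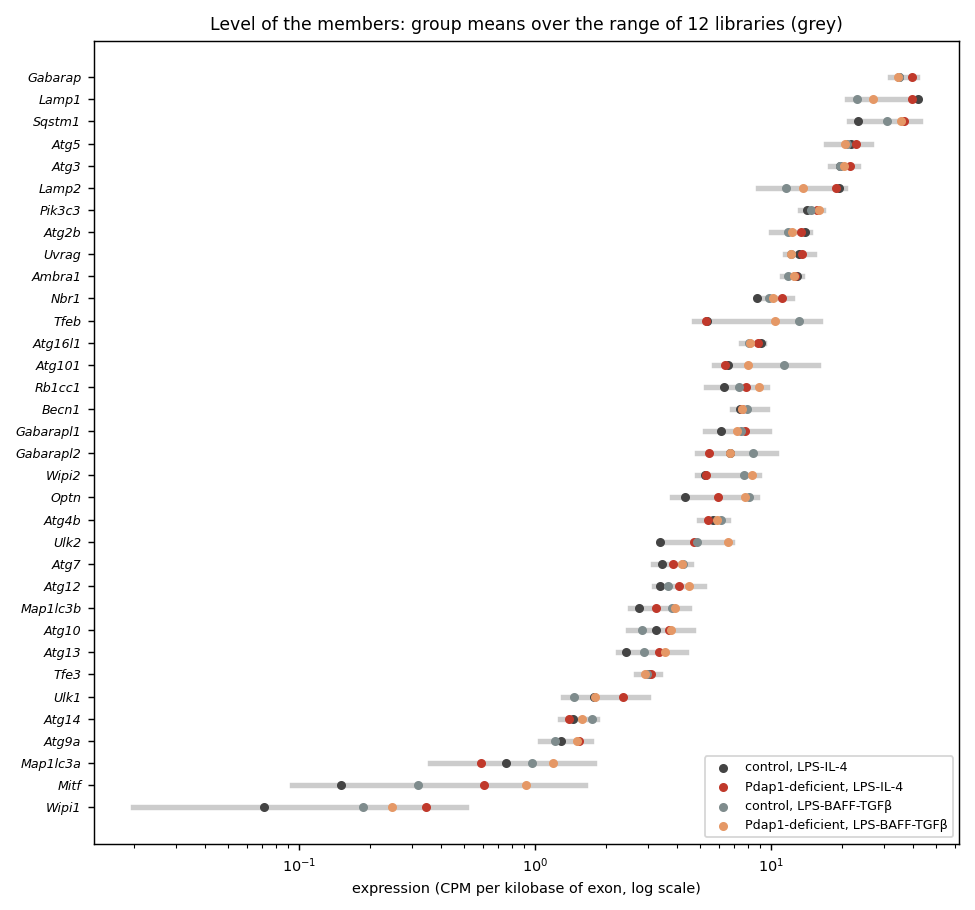
Level of 34 members in CPM per kilobase of exon (log scale), ordered by the mean over 12 libraries. Points are group means of 3 mice and grey bars the range of the 12 libraries. Gabarap, Lamp1 and Sqstm1 stand at the top with means of 36.1, 32.9 and 31.7, and Wipi1 at the bottom with 0.213. Atg2a and Atg4a, which were at 0 in at least 9 libraries, are not drawn.

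Atg4a and Atg2a could not be assessed. Atg4a, a protease that processes Atg8 proteins, had 0 reads in all 12 libraries, which allows at most between 0.0432 and 0.655 CPM in a library (limit of 3 reads, counting error only). A near-identical copy, Atg4a-ps, aligned to 96.0% of the Atg4a transcript at 99.3% identity and collected 549 reads. How reads that match both were assigned is not given in the sources used here, so the value of Atg4a is uncertain. Atg2a, a lipid transfer protein, had 1 read at most and 0 in 9 libraries, whereas its paralog Atg2b had between 134 and 197 CPM. Gabarapl2, with 3133 reads in all, shares 20.8% of its transcript at 99.4% identity with Gm3724, which collected 2066 reads, and is uncertain for the same reason. Exons of several members overlap those of a gene on the opposite strand, with the largest share in Becn1 (43.9% with Cntd1), Gabarapl1 (28.3% with 1700101I11Rik), Uvrag (17.6% with Gm45187) and Sqstm1 (17.3% with Mrnip), and 31.8% of the Atg9a exons overlap Gm29253 on the same strand. The strand setting of the counting is not given in the sources used here, so reads in these overlaps may have been shared or left uncounted. Over the 12 libraries, Sqstm1 had 19447 reads and Mrnip 625, while Becn1 had 10019 and Cntd1 275.

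Total counts were between 9386667 and 15869143 in LPS-IL-4 and between 4579793 and 8303482 in LPS-BAFF-TGFβ, except for the library of control mouse 1 in LPS-BAFF-TGFβ with 69500640. Pdap1 itself was between 91.4 and 97.8 CPM in control and between 23.3 and 29.9 CPM in Pdap1-deficient libraries with LPS-IL-4, and between 80.3 and 199 against between 23.0 and 26.4 CPM with LPS-BAFF-TGFβ. The 199 CPM came from the deep library of control mouse 1. Atf4, the stress transcription factor, was higher in Pdap1-deficient cells in both stimulations (log2 fold change 1.04 and 1.19, edgeR adjusted p = 0.00561 and 0.0039), as was its target Chac1 (3.19 and 4.69, adjusted p = 1.1e-05 and 1.71e-05). Ddit3 was higher with LPS-IL-4 (0.73, adjusted p = 0.0454). Pdap1-deficient mouse 2 stood apart in its level of 8 myeloid markers (Lyz2, Csf1r, Adgre1, Cd14, Itgam, S100a8, S100a9 and Mpo). Their sum was 317 CPM with LPS-IL-4 and 550 CPM with LPS-BAFF-TGFβ in this mouse, against 33.7 and 79.0 CPM in Pdap1-deficient mouse 3, 6.77 and 11.8 CPM in Pdap1-deficient mouse 1 and between 5.22 and 24.8 CPM in the 6 control libraries. In mouse 2, Lyz2 reached 94.0 and 278 CPM and Csf1r 27.5 and 43.8 CPM, while Mpo was at or below 0.243 CPM in all 12 libraries. Values without this mouse are given beside the main genotype results.

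With LPS-IL-4, 3 members were higher in Pdap1-deficient than in control B cells and none was lower, at the threshold of 0.05 for the p of edgeR's quasi-likelihood test, adjusted over all genes by Benjamini-Hochberg, which is the test used throughout. The 3 were Sqstm1, which encodes the cargo receptor p62, Ulk2, an initiation kinase, and Wipi1, which binds the lipid made by the class III kinase. They are 3 of the 34 members that passed the filter on low counts, compared with 4.92% of the 15074 genes tested (2.79% higher, 2.12% lower). At an unadjusted p under 0.05, 10 members were higher and 0 lower, compared with 12.1% and 11.7% of all genes. The libraries of the genotypes did not overlap for 10 higher and 2 lower members (15.5% and 16.1% of all genes). The median log2 fold change of the 34 members was 0.14, and that of all genes tested 0.02. None of the 3 passed without any one of the control mice or without Pdap1-deficient mouse 3. In these fits Sqstm1 had log2 values of 0.56 to 0.69 (adjusted p = 0.0644 to 0.141), Ulk2 of 0.44 to 0.46 (0.14 to 0.205) and Wipi1 of 1.80 to 2.71 (0.114 to 0.19). Ulk2 also did not pass without Pdap1-deficient mouse 1 (0.42, adjusted p = 0.0622) or with DESeq2 (0.44, adjusted p = 0.0656). As these are bulk libraries, a different number of cells of a type and a different amount of RNA per cell cannot be told apart.

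**Figure D2:**
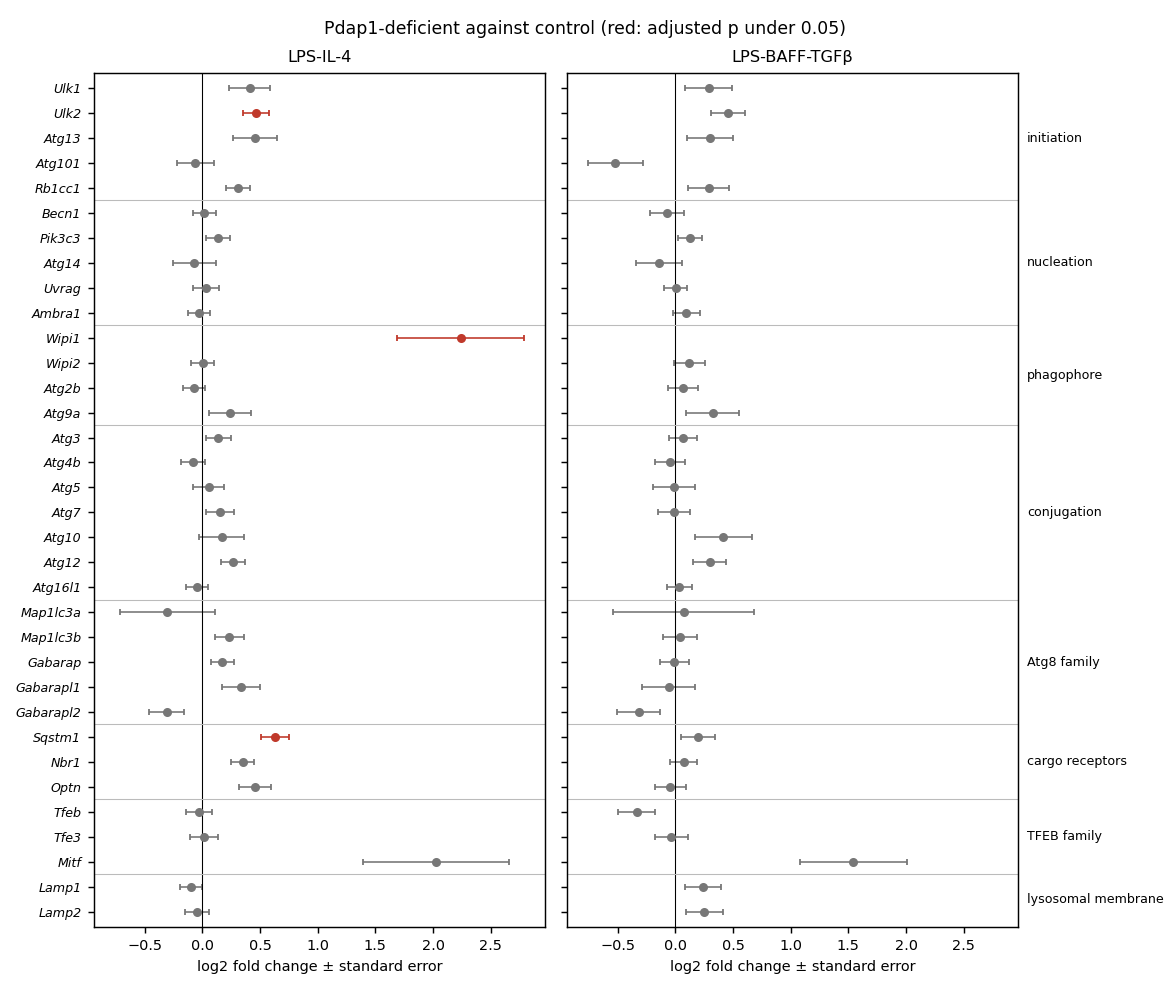
Log2 fold change of Pdap1-deficient over control cells with its standard error for each member tested, by role, in LPS-IL-4 (left) and LPS-BAFF-TGFβ (right), 3 mice per group. Red points passed an adjusted p under 0.05. They are Sqstm1 (0.63), Ulk2 (0.47) and Wipi1 (2.24) with LPS-IL-4, and there are 0 with LPS-BAFF-TGFβ. Wipi1 was not tested with LPS-BAFF-TGFβ.

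The cargo receptors link ubiquitin-tagged cargo to Atg8 proteins, and all 3 had higher levels in each Pdap1-deficient than in each control library with LPS-IL-4. Of all genes, 15.5% were higher and 16.1% lower without overlap, and 1 of the 3 receptors, Sqstm1, passed. Sqstm1 was at 77.1, 72.0 and 86.4 CPM in control mice 1 to 3 and at 108, 144 and 116 CPM in Pdap1-deficient mice 1 to 3. The groups did not overlap, and the fold change was 1.55 (log2 0.63 ± 0.12 SE, n = 3 mice per genotype, edgeR adjusted p = 0.0208). The highest library was that of mouse 2 with its myeloid markers, and without this mouse the log2 fold change of Sqstm1 was 0.52 (adjusted p = 0.00248).

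Nbr1, a receptor with a domain structure like that of p62, was at 60.2, 59.5 and 59.8 CPM in control mice and 73.1, 83.9 and 73.4 CPM in the Pdap1-deficient mice under LPS-IL-4. Its log2 fold change was 0.35 ± 0.10 (SE), with edgeR adjusted p = 0.0652, and without Pdap1-deficient mouse 2 it was 0.30 with adjusted p = 0.0393. The fit without mouse 2 called 1459 genes over all, against 741 with all mice. Without any other single mouse Nbr1 did not pass (adjusted p = 0.054 to 0.253). Optn (optineurin), a receptor known for damaged mitochondria and bacteria, was at 17.4, 14.3 and 16.9 CPM in control and 20.0, 25.2 and 21.9 CPM in Pdap1-deficient cells. The log2 fold change of Optn was 0.46 ± 0.14 (SE, edgeR adjusted p = 0.0819), and 0.37 without mouse 2 (adjusted p = 0.0969). Mouse 2 was thus the highest library for each of the 3 receptors. The part of the myeloid markers in these values was not tested beyond leaving the mouse out.

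Initiation of autophagy rests on Ulk1 or Ulk2 bound to Atg13, Atg101 and Rb1cc1 (Fip200). Ulk2 was at 20.4, 20.1 and 20.3 CPM in control mice and 29.4, 26.4 and 28.8 CPM in Pdap1-deficient mice with LPS-IL-4. The groups did not overlap, and mouse 2 was the lowest of the Pdap1-deficient libraries. The fold change was 1.38 (log2 0.47 ± 0.11 SE, edgeR adjusted p = 0.0455), and without mouse 2 the log2 value was 0.53 (adjusted p = 0.00831).

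Of the other 4 initiation genes, none passed, while 3 were higher at an unadjusted p under 0.05. Over all genes, 12.1% were higher and 11.7% lower at this p. Rb1cc1, the scaffold, was between 85.9 and 98.1 CPM in control and between 108 and 126 CPM in Pdap1-deficient cells (log2 0.31 ± 0.10 SE, edgeR adjusted p = 0.112, and 0.34 with adjusted p = 0.0264 without mouse 2). Without any other single mouse Rb1cc1 did not pass. Atg13 (log2 0.46, adjusted p = 0.177) and Ulk1 (0.41, adjusted p = 0.2) overlapped between genotypes and were highest in mouse 2, at 19.0 and 19.5 CPM. Without this mouse their log2 values were 0.24 and 0.21. Atg101 had a log2 fold change of -0.06.

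Wipi1 was among the least abundant members, with between 1 and 6 reads per control library and between 12 and 37 per Pdap1-deficient library with LPS-IL-4. In CPM it was at 0.494, 0.360 and 0.0876 in control and 0.934, 2.25 and 1.37 in Pdap1-deficient mice. The groups did not overlap, with a log2 fold change of 2.24 ± 0.55 (SE, edgeR adjusted p = 0.0463). Mouse 2 was again highest, and its removal gave a log2 value of 1.81 (adjusted p = 0.0787). Its more abundant paralog Wipi2 had a log2 fold change of 0.00 ± 0.10 (SE), at 55.6 CPM in control and 56.0 CPM in Pdap1-deficient cells on average.

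Within the TFEB family, which regulates lysosomal genes, the members differed. With LPS-IL-4, Mitf was at 0.576, 1.08 and 1.14 CPM in control mice and 1.17, 7.11 and 3.07 CPM in Pdap1-deficient mice 1 to 3. The level thus lay just above the controls in mouse 1 and highest in mouse 2, in the order of the myeloid marker sums of 6.77, 317 and 33.7 CPM. The log2 fold change was 2.02 ± 0.64 (SE, edgeR adjusted p = 0.105), and 1.14 without mouse 2 (adjusted p = 0.151). Tfeb (log2 -0.03 ± 0.11 SE) and Tfe3 (0.02 ± 0.12) did not pass, and their libraries overlapped between genotypes. The part of other cells in the Mitf level was not tested.

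The remaining roles held no member that passed with LPS-IL-4. In the class III kinase complex, log2 fold changes of the 5 members (Becn1, Pik3c3, Atg14, Uvrag and Ambra1) were between -0.07 and 0.14, and all 5 overlapped between genotypes. In the conjugation system, 7 tested members (Atg3, Atg4b, Atg5, Atg7, Atg10, Atg12 and Atg16l1) were between -0.08 and 0.26. The highest was Atg12, the ubiquitin-like protein joined to Atg5, at 26.5, 24.7 and 26.7 CPM in control and 29.6, 32.4 and 32.1 CPM in Pdap1-deficient cells (edgeR adjusted p = 0.161), and its log2 value was 0.25 without mouse 2. Of the 5 Atg8 proteins, Map1lc3b and Gabarap lay higher in every Pdap1-deficient library and Gabarapl2 lower, with log2 values of 0.23, 0.17 and -0.31 (adjusted p = 0.289, 0.327 and 0.249). Of all genes, 15.5% lay higher and 16.1% lower without overlap. Without mouse 2 the value of Map1lc3b was 0.18. Lamp1 and Lamp2, which line the lysosomal membrane, had values of -0.10 and -0.05.

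**Figure D3:**
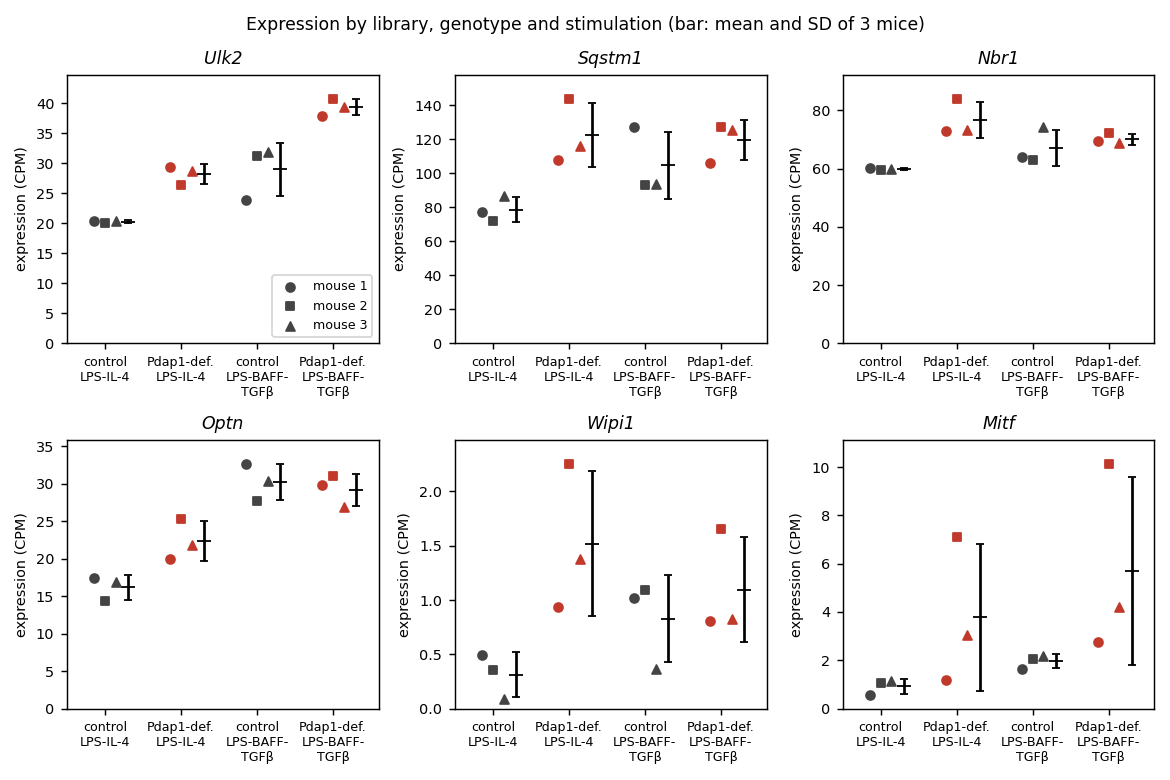
Expression in CPM of 6 members in each of the 12 libraries, with symbols for the mouse number and the mean and SD of 3 mice beside them. Numbers name mice within a genotype and do not pair mice between genotypes. With LPS-IL-4, the Pdap1-deficient libraries lie above the control libraries in all 6 panels, as they do for 15.5% of all genes. Mouse 2 (square) is the highest Pdap1-deficient library for Sqstm1, Nbr1, Optn, Wipi1 and Mitf with LPS-IL-4, and the lowest for Ulk2.

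With LPS-BAFF-TGFβ, 0 of 33 members tested passed by edgeR, compared with 0.462% of 14079 genes, and DESeq2 also called 0. Of the members, 2 (Ulk2 and Mitf) had an unadjusted p under 0.05, compared with 10.6% of all genes. Libraries of the genotypes did not overlap for 5 higher (Ulk2, Pik3c3, Atg10, Atg12 and Mitf) and 0 lower members, compared with 9.55% and 9.08% of all genes. The median log2 fold change of the 33 members was 0.07, and that of all genes 0.01. Ulk2 was at 23.9, 31.1 and 31.8 CPM in control mice 1 to 3 and 37.9, 40.7 and 39.4 CPM in Pdap1-deficient mice. Its groups did not overlap, and the log2 fold change of 0.46 ± 0.15 (SE, edgeR adjusted p = 0.345) stood beside 0.47 with LPS-IL-4, with an interaction term of -0.03 ± 0.17 (SE). The lowest control value was that of the deep library of mouse 1, and without it the log2 value was 0.32 (adjusted p = 0.327). Without Pdap1-deficient mouse 2, the highest library, it was 0.41 (adjusted p = 0.791).

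Mitf was at 1.65, 2.07 and 2.19 CPM in control and 2.74, 10.1 and 4.22 CPM in Pdap1-deficient mice with LPS-BAFF-TGFβ (log2 1.54 ± 0.47 SE, edgeR adjusted p = 0.325). As with LPS-IL-4, its highest library was that of mouse 2, and without this mouse the value was 0.85 (adjusted p = 0.791). Without a filter on low counts, Mitf passed with adjusted p = 0.0359.

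The cargo receptors overlapped between genotypes with LPS-BAFF-TGFβ. Sqstm1 was at 127, 92.8 and 93.6 CPM in control and 106, 127 and 125 CPM in Pdap1-deficient mice, so that the deep control library reached the highest Pdap1-deficient level. Its log2 fold change was 0.20 ± 0.15 (SE, edgeR adjusted p = 0.623), and 0.36 without control mouse 1 (adjusted p = 0.235). Nbr1 (0.07) and Optn (-0.05) lay near 0. Optn was at 32.6, 27.7 and 30.3 CPM in control and 29.8, 31.0 and 26.8 CPM in Pdap1-deficient cells. Wipi1, with between 3 and 64 reads in control and between 5 and 8 in Pdap1-deficient libraries, did not pass the filter and was not tested, at 1.02, 1.09 and 0.365 CPM against 0.806, 1.65 and 0.821 CPM.

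The difference between the genotype effects of the 2 stimulations was tested as an interaction over the 12 libraries. The main fit did not pair the 2 cultures of a mouse. Of 34 members 0 passed, and so did 0% of 15794 genes, with 755 genes (4.78%) at an unadjusted p under 0.05 and 6 genes called by DESeq2. The 3 members with the smallest p were Optn (log2 difference -0.52 ± 0.18 SE), Wipi1 (-1.98 ± 0.81) and Sqstm1 (-0.46 ± 0.21), each with an edgeR adjusted p = 0.983. With the mouse as a block, 0 members and 0 of 15794 genes passed. Optn was then at -0.51 ± 0.17 (SE) and Wipi1 at -1.83 ± 0.65, both with an edgeR adjusted p = 0.764. A negative sign means a smaller rise, or a fall, with LPS-BAFF-TGFβ. A different response of the cargo receptors to Pdap1 loss in the 2 stimulations was therefore not detectable with 3 mice per group.

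Atf4 and Ddit3 are reported activators of 12 of the members (Atg16l1, Map1lc3b, Atg12, Atg3, Becn1, Gabarapl2, Sqstm1, Nbr1, Atg7, Atg10, Gabarap and Atg5). With LPS-IL-4, 1 of the 12, Sqstm1, passed, and their median log2 fold change was 0.16, while 2 of the other 22 tested members (Ulk2 and Wipi1) passed, with a median of 0.02. Of all genes 4.92% passed, with a median of 0.02. With LPS-BAFF-TGFβ, 0 of the 12 passed, and the median was 0.04, against 0.462% and a median of 0.01 over all genes. Atf4 itself rose in both stimulations, as given above.

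Among 110 other genes of autophagy and the lysosome, the genotypes differed in 1 gene with LPS-IL-4 and in 0 with LPS-BAFF-TGFβ, of 103 tested in each, compared with 4.92% and 0.462% of all genes. The gene was Phb2, a mitochondrial membrane protein known as a mitophagy receptor. It was at 152, 163 and 197 CPM in control and 135, 101 and 114 CPM in Pdap1-deficient cells with LPS-IL-4, lower without overlap (log2 -0.55 ± 0.14 SE, edgeR adjusted p = 0.0497). Phb2 did not pass without any one control mouse or without Pdap1-deficient mouse 3 (-0.45 to -0.64, adjusted p = 0.114 to 0.206). Without Pdap1-deficient mouse 1 or 2 there were 6 and 8 higher genes beside it. Over all genes, these fits called 1759 of 15482 and 1459 of 15226. At an unadjusted p under 0.05, 21 of these genes were higher and 3 lower with LPS-IL-4, compared with 12.1% and 11.7% of all genes. The medians were 0.15 for 33 other autophagy genes, 0.01 for 15 V-ATPase subunits, which acidify the lysosome, 0.11 for 38 hydrolases and activators and 0.23 for 17 membrane and export proteins. Without Pdap1-deficient mouse 2, with its myeloid markers, the medians were 0.15, 0.06, 0.10 and 0.12 in the same order. None of the hydrolases passed.

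More members passed between stimulations than between genotypes. In control mice, 5 members were higher (Tfeb, Optn, Wipi2, Ulk2 and Atg101) and 2 lower (Lamp1 and Lamp2) in LPS-BAFF-TGFβ than in LPS-IL-4, of 33 tested by edgeR, compared with 19.3% of 14882 genes (9.99% higher, 9.33% lower). With the mouse as a block, 3 members were higher (Tfeb, Optn and Wipi2) and the same 2 lower, and 1989 of 14882 genes were called. In Pdap1-deficient mice, 3 members were higher (Tfeb, Wipi2 and Ulk2) and 2 lower (Lamp1 and Lamp2), compared with 11.5% of 14617 genes (5.57% higher, 5.89% lower). With the block Optn passed as well, and 3854 of the 14617 genes were called. The libraries of the 2 stimulations did not overlap for 11 higher and 7 lower members in control mice (19% and 18.8% of all genes), and for 6 higher and 5 lower members in Pdap1-deficient mice (15% and 14.1%). The share of the members that passed is close to that of all genes in both genotypes.

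**Figure D4:**
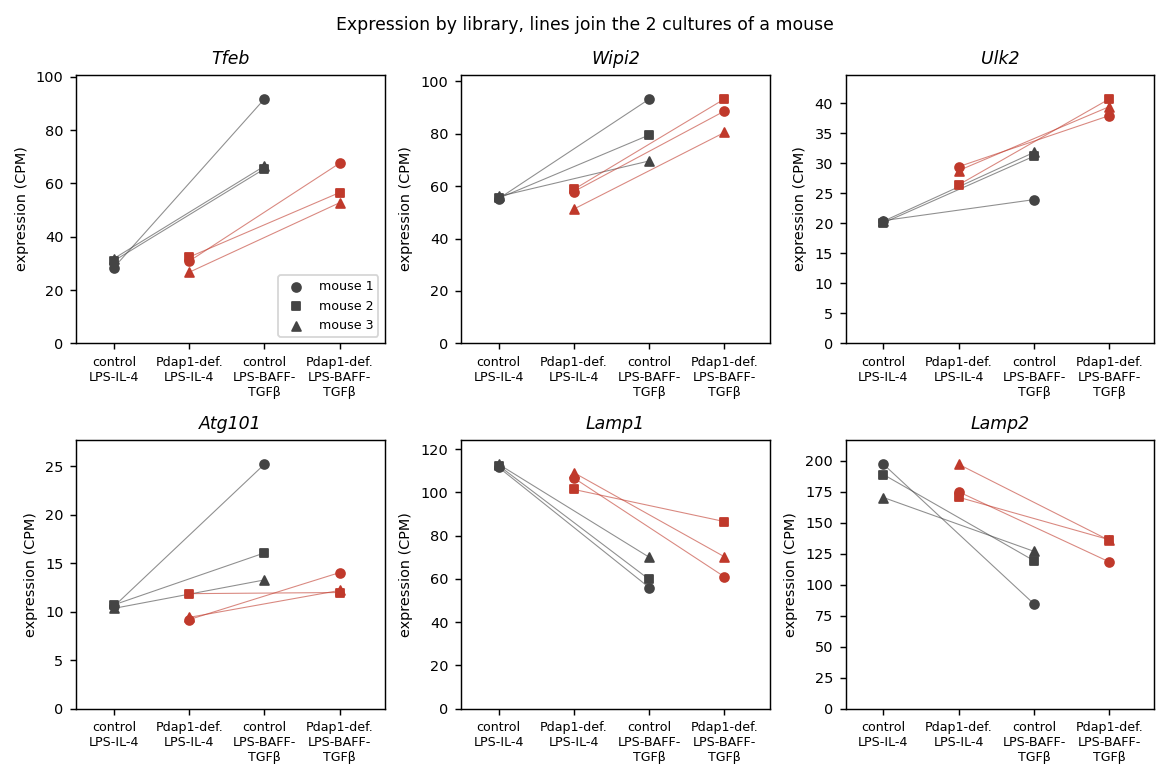
Expression in CPM of 6 members by stimulation and genotype, with lines that join the 2 cultures of a mouse. Tfeb, Wipi2, Ulk2 and Atg101 lie higher and Lamp1 and Lamp2 lower with LPS-BAFF-TGFβ in all 6 mice. The control library of mouse 1 with LPS-BAFF-TGFβ (circle) is the highest of 12 for Tfeb (91.7) and Atg101 (25.2) and the lowest for Lamp1 (56.0) and Lamp2 (84.5).

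Tfeb had the largest log2 change among the members that passed, in both genotypes. In control mice it was at 28.4, 30.9 and 31.8 CPM with LPS-IL-4 and 91.7, 65.5 and 66.5 CPM with LPS-BAFF-TGFβ, a 2.46-fold difference (log2 1.30 ± 0.14 SE, edgeR adjusted p = 0.000468). In Pdap1-deficient mice it was at 30.8, 32.4 and 26.6 CPM and 67.6, 56.6 and 52.8 CPM, a 1.97-fold difference (log2 0.98 ± 0.13 SE, adjusted p = 0.00136). The stimulations did not overlap in either genotype, and Tfeb passed with each mouse left out in turn. In control mice without the deep library the log2 value was 1.09. Tfe3, which acts on the same E-boxes, lay between 24.7 and 31.3 CPM in all 12 libraries, with log2 values of -0.01 and -0.08.

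The lysosomal membrane proteins went the other way from Tfeb. Lamp1 was at 112, 112 and 113 CPM with LPS-IL-4 and 56.0, 59.7 and 70.0 CPM with LPS-BAFF-TGFβ in control mice (log2 -0.86 ± 0.10 SE, edgeR adjusted p = 0.000755). In Pdap1-deficient mice Lamp1 was at 107, 101 and 109 CPM against 61.0, 86.5 and 70.2 CPM (log2 -0.54 ± 0.13 SE, adjusted p = 0.0284). The smallest fall was in Pdap1-deficient mouse 2. Without this mouse the log2 value was -0.71.

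Lamp2 was at 197, 189 and 170 CPM with LPS-IL-4 and 84.5, 119 and 127 CPM with LPS-BAFF-TGFβ in control mice (log2 -0.75 ± 0.16 SE, edgeR adjusted p = 0.0122). In Pdap1-deficient mice it was at 175, 171 and 197 CPM against 118, 136 and 136 CPM (-0.47 ± 0.11, adjusted p = 0.0187). The groups did not overlap in either genotype. Lamp1 passed in control mice with each mouse left out, whereas Lamp2 did not pass without control mouse 2 (-0.81, adjusted p = 0.0948) or 3 (-0.93, 0.0713). In Pdap1-deficient mice neither gene passed without mouse 1 (Lamp1 -0.41, adjusted p = 0.322, and Lamp2 -0.41, 0.273) or mouse 3 (-0.49, 0.358, and -0.43, 0.244). The sum of a set of plasma cell markers was also lower with LPS-BAFF-TGFβ. The sum of its 6 genes was between 446 and 488 CPM in control and between 454 and 579 CPM in Pdap1-deficient mice with LPS-IL-4, against between 153 and 187 and between 152 and 194 CPM. Its part in the fall of Lamp1 and Lamp2 was not tested.

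Wipi2, which recruits the conjugation complex to the growing membrane, was at 55.3, 55.4 and 56.1 CPM with LPS-IL-4 and 93.3, 79.6 and 69.7 CPM with LPS-BAFF-TGFβ in control mice (log2 0.55 ± 0.11 SE, edgeR adjusted p = 0.0121). In Pdap1-deficient mice it was at 58.0, 58.8 and 51.3 CPM against 88.7, 93.3 and 80.5 CPM (0.64 ± 0.11, adjusted p = 0.00458). The rise was present in all 6 mice. Wipi2 did not pass without control mouse 2 (0.55, adjusted p = 0.126) or 3 (0.63, 0.0632), nor without Pdap1-deficient mouse 1 (0.68, 0.0904) or 3 (0.65, 0.0913).

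By edgeR, Ulk2 passed in 3 of the 5 comparisons, and by DESeq2 in 1, that of the stimulations in Pdap1-deficient mice. In the edgeR test it rose with LPS-BAFF-TGFβ by log2 0.51 ± 0.14 (SE) in control mice (edgeR adjusted p = 0.0396) and 0.48 ± 0.11 in Pdap1-deficient mice (adjusted p = 0.0219). Its levels thus lay lowest in control cells with LPS-IL-4 (20.3 ± 0.191 CPM, SD, n = 3). With 223 to 248 reads per library there, counting error alone exceeds this SD. This group enters both the genotype test with LPS-IL-4 and the stimulation test in control mice. In between were Pdap1-deficient cells with LPS-IL-4 (28.2 ± 1.59) and control cells with LPS-BAFF-TGFβ (28.9 ± 4.37), whose libraries overlapped. The highest levels were in Pdap1-deficient cells with LPS-BAFF-TGFβ (39.3 ± 1.39). The rise did not pass in control mice with the mouse as a block (adjusted p = 0.0851) or with DESeq2 (adjusted p = 0.0691), nor in Pdap1-deficient mice without a filter on low counts (adjusted p = 0.0522). Nor did it without control mouse 2 (0.44, adjusted p = 0.266) or 3 (0.43, 0.286), or without Pdap1-deficient mouse 1 (0.56, 0.146) or 3 (0.50, 0.242).

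Optn was at 17.4, 14.3 and 16.9 CPM with LPS-IL-4 against 32.6, 27.7 and 30.3 CPM with LPS-BAFF-TGFβ in control mice (log2 0.90 ± 0.13 SE, edgeR adjusted p = 0.00181). In Pdap1-deficient mice, where it was 20.0, 25.2 and 21.9 CPM with LPS-IL-4, it was at 29.8, 31.0 and 26.8 CPM with LPS-BAFF-TGFβ (0.38 ± 0.14, adjusted p = 0.118, and adjusted p = 0.0155 with the mouse as a block). The levels were higher in each mouse of both genotypes. Without control mouse 3, Optn had a log2 value of 0.92 and an adjusted p = 0.0522. Atg101, a scaffold of the Ulk complex, was at 10.5, 10.7 and 10.3 CPM with LPS-IL-4 and 25.2, 16.1 and 13.3 CPM with LPS-BAFF-TGFβ in control mice (log2 0.81 ± 0.23 SE, adjusted p = 0.0427). The value of 25.2 CPM is from the deep library, without which the log2 value was 0.50 (adjusted p = 0.0544), and with the block the adjusted p was 0.0683. Atg101 did not pass without control mouse 2 (0.90, adjusted p = 0.17) or 3 (0.96, 0.108) either. In Pdap1-deficient mice Atg101 was at 9.18, 11.9 and 9.41 CPM against 14.0, 11.98 and 12.2 CPM (0.33 ± 0.18, adjusted p = 0.327).

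**Figure D5:**
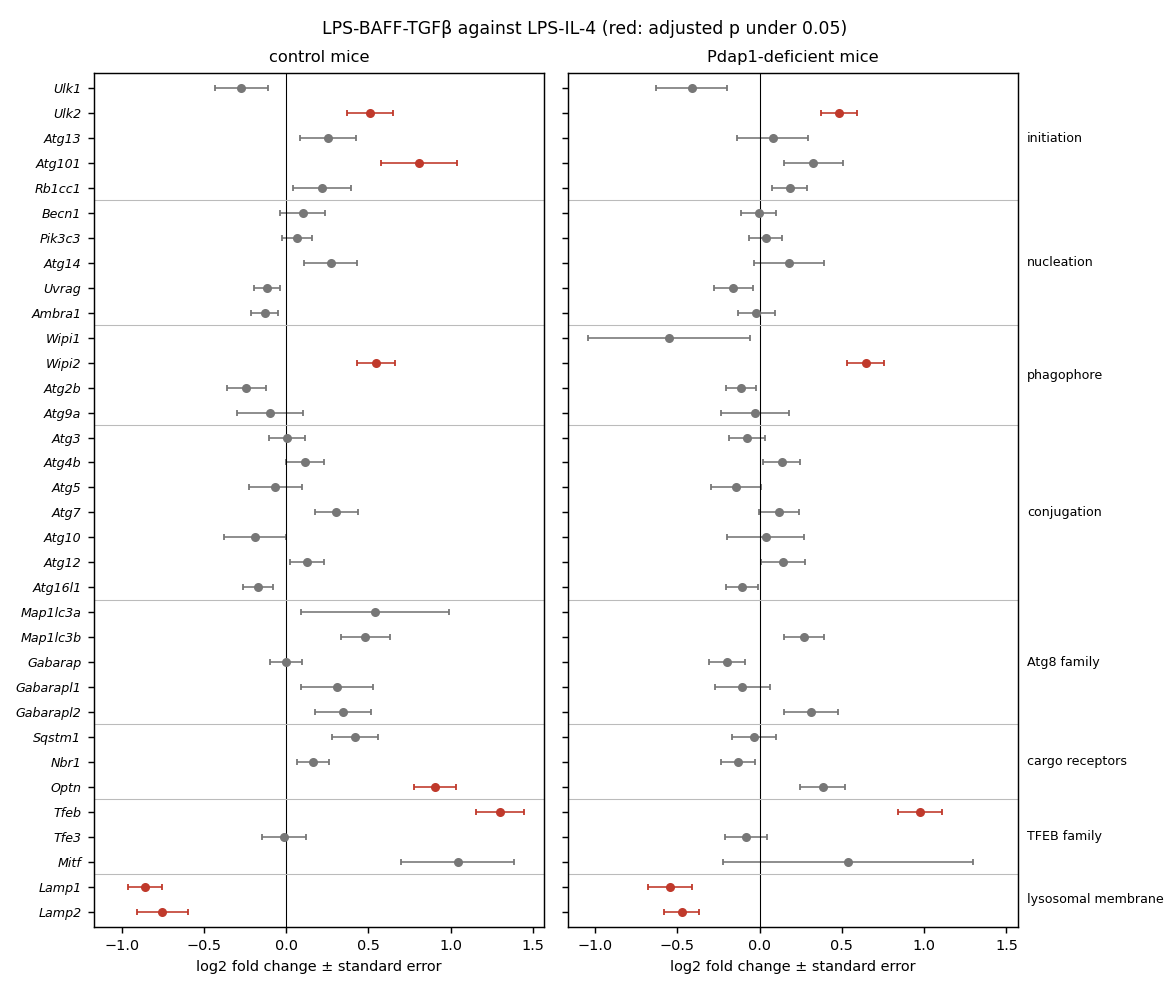
Log2 fold change of LPS-BAFF-TGFβ over LPS-IL-4 with its standard error for each member tested, by role, in control mice (left) and Pdap1-deficient mice (right), 3 mice per group. Red points passed an adjusted p under 0.05. Tfeb (1.30 and 0.98), Wipi2 (0.55 and 0.64) and Ulk2 (0.51 and 0.48) lie above 0 and Lamp1 (-0.86 and -0.54) and Lamp2 (-0.75 and -0.47) below it in both panels.

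None of the remaining members passed between stimulations. Mitf had the highest log2 value among them in control mice, at 0.576, 1.08 and 1.14 CPM with LPS-IL-4 and 1.65, 2.07 and 2.19 CPM with LPS-BAFF-TGFβ, without overlap (log2 1.04 ± 0.34 SE, edgeR adjusted p = 0.071). In Pdap1-deficient mice its value was 0.54 ± 0.76 (adjusted p = 0.755). The 5 genes of the class III kinase complex had log2 values between -0.13 and 0.27 in control and between -0.16 and 0.18 in Pdap1-deficient mice, and the 7 tested conjugation genes between -0.19 and 0.31 and between -0.14 and 0.14. Map1lc3b, the most studied Atg8 protein, was at 18.9, 19.7 and 23.3 CPM with LPS-IL-4 and 33.7, 24.8 and 27.5 CPM with LPS-BAFF-TGFβ in control mice, without overlap but short of the threshold (log2 0.48 ± 0.15 SE, edgeR adjusted p = 0.0576). Sqstm1 had a log2 value of 0.42 in control mice (adjusted p = 0.0698) and -0.04 in Pdap1-deficient mice (adjusted p = 0.912). The control value of Sqstm1 without the deep library was 0.25.

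Of the 110 other genes, 9 were higher and 16 lower with LPS-BAFF-TGFβ in control mice, and 4 were higher and 11 lower in Pdap1-deficient mice, of 103 tested. Over all genes the shares were 9.99% higher and 9.33% lower in control and 5.57% and 5.89% in Pdap1-deficient mice. With the mouse as a block the counts were 3 and 10 in control and 10 and 24 in Pdap1-deficient mice. The block fits called 1989 of 14882 and 3854 of 14617 genes over all. Without control mouse 1, 2 and 3 the counts were 11 and 22, 1 and 6, and 1 and 2. Over all genes these fits called 4009 of 14629, 1232 of 15287 and 921 of 15134. Without Pdap1-deficient mouse 1, 2 and 3 the counts were 1 and 4, 5 and 15, and 1 and 2. Over all genes these fits called 552 of 15035, 2398 of 14515 and 346 of 15290. The hydrolases and their activators held 10 of the 16 and 7 of the 11 lower genes, of 38 tested. They also held 4 of the 9 higher genes in control mice and 1 of the 4 in Pdap1-deficient mice. Genes of these lists are named here after their values were seen. Lgmn, the cysteine protease legumain, was at 69.8, 65.6 and 79.5 CPM with LPS-IL-4 and 27.7, 28.0 and 30.7 CPM with LPS-BAFF-TGFβ in control mice (log2 -1.31 ± 0.11 SE, edgeR adjusted p = 9.23e-05), and in Pdap1-deficient mice its log2 value was -1.74 (adjusted p = 2.75e-05). Ctsa, Ctsh, Ctsz, Neu1 and Galns were lower in both genotypes, as was Npc2, a cholesterol carrier of the lysosome lumen (-0.93 and -1.01). Psap, the precursor of saposins, had a log2 value of -0.79 in control mice (adjusted p = 0.00148) and -0.82 in Pdap1-deficient mice (adjusted p = 0.0893), where it passed with the mouse as a block. Rubcn (Rubicon), a negative regulator of the class III kinase complex, was the most significant higher gene, at 92.9, 87.5 and 97.6 CPM against 186, 165 and 181 CPM in control mice (0.94 ± 0.09 SE, adjusted p = 0.00019), with 1.20 in Pdap1-deficient mice (adjusted p = 0.000322). Retreg1 and Bnip3l, receptors for endoplasmic reticulum and mitochondria, were higher in both genotypes, although Bnip3l did not pass in control mice with the block, and the kinase Tbk1 was lower in both. Of 15 V-ATPase subunits tested, 1 was higher and 2 lower in control mice, and 0 passed in Pdap1-deficient mice (1 higher and 4 lower with the block). The 2 stimulation comparisons rest on different mice. The 2 genotype comparisons rest on different cultures of the same mice and are therefore not independent. Each group enters 2 of these comparisons and also the interaction.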

How the data were processed

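RNA-seq was measured in 12 libraries. The authors mapped reads to GRCm38 with STAR 2.6 after Trim Galore 0.6.1, and counted them per gene with HTSeq 0.9.1, as named in the submitters' processing notes and the study's methods, after ribosomal RNA depletion and a stranded library kit. The deposited counts per Ensembl gene are raw. A second table deposited by the authors holds a normalized signal, in which the counts of a library are scaled by a constant, and was used only as a check. The annotation release and strand setting of the counting are not given in the sources used here. Symbols, positions and exon lengths are from GENCODE M21, which matched all 55536 features, and promoter windows from RefSeq on GRCm38.p6 matched 30 of the 36 members.

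The tests were edgeR's (version 4.0.16, R 4.3.3) robust quasi-likelihood fit on all genes that passed filterByExpr, with TMM factors, two-sided, with Benjamini-Hochberg adjustment over all genes tested and a threshold of 0.05. The stimulation comparisons were also fitted with the mouse as a block, because the series' description states that both cultures of a number come from the same mouse. Same-numbered libraries correlated at 0.579, 0.622 and 0.293 in Pdap1-deficient and at -0.181, 0.341 and -0.0228 in control mice. CPM use TMM-scaled totals over all 12 libraries. Alternatives were DESeq2 1.42.0, DESeq2 size factors, other filters on low counts, a replicate block, 1 fit of all libraries, a threshold of 0.01 and each mouse left out. Leaving out each mouse for the other lists was added after the data were seen. No library was a copy of another. The procedure was also run on simulated counts, drawn independently for each library without the pairing of mice, and its outcome is not given here. The full Cre genotype and 1 B cell marker are not reported here. Total counts of 4579793 to 69500640 set the counting error, and 3 mice per group the spread.

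All 36 members were named, grouped by role. Values in every library are given for members past the threshold, for those with an unadjusted p under 0.05 in both genotype comparisons and for the 3 smallest p of the interaction. Promoters were shown for the 3 members of smallest summed rank of p (Ulk2, Mitf and Atg12, of which Atg12 had no window), Sqstm1, Lamp1 and Tfeb being added after their values were seen, of which Tfeb is not printed. Values of Nbr1, Rb1cc1, Atg12, Map1lc3b and of other genes of the pathway lists were also given after they were seen. The members and lists were chosen with earlier results of these data known.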

Additional observations from a re-analysis of the deposited data

How the results depend on the processing

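With LPS-IL-4, the number of members higher in Pdap1-deficient cells was 3 and ranged from 0 to 5 when 1 mouse was left out. It was 0 without any one of control mice 1, 2 and 3 or without Pdap1-deficient mouse 3, 3 without Pdap1-deficient mouse 1 (Mitf, Sqstm1 and Wipi1), 5 without mouse 2 (Gabarapl1, Nbr1, Rb1cc1, Sqstm1 and Ulk2), and 0 at an adjusted p under 0.01. The calls over all genes moved from 741 to between 69 and 1759 with 1 mouse left out, and the cause was not tested. The median log2 fold change of the members was 0.14, 0.115 with DESeq2, and 0.0779 to 0.132 with 1 mouse left out. DESeq2 called Mitf and Sqstm1, and the replicate block called Mitf, Sqstm1 and Wipi1. Same-numbered mice of the 2 genotypes correlated at -0.205 to 0.103, share only a number, and the block moved the calls over all genes from 741 to 641 and from 65 to 48. With LPS-BAFF-TGFβ, 0 members became 1 (Mitf) and the median of 0.07 became 0.00805 without a filter on low counts. The calls over all genes there rose from 65 to 174 with DESeq2, 257 without a filter and 133 in the fit of all 12 libraries, and were 19 to 116 with 1 mouse left out. Optn, at -0.05, changed sign without control mouse 1 (0.00562) or Pdap1-deficient mouse 3 (0.0136), within a range of -0.111 to 0.0136, and the cause was not tested. The interaction gave 0 members in each of its alternatives, with 1 gene called without a filter and 6 by DESeq2.

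For the stimulation in control mice, 5 higher members became 3 with the mouse as a block and 2 at an adjusted p under 0.01, and 1 to 5 with 1 mouse left out. The 2 lower members became 1 at an adjusted p under 0.01 and 1 to 2 with 1 mouse left out. In Pdap1-deficient mice, the 3 higher members became 1 to 3 and the 2 lower members 0 to 2 with 1 mouse left out, and 0 lower members remained at an adjusted p under 0.01. The block moved the calls over all genes from 2874 to 1989 and from 1675 to 3854. Without a mouse, these calls were 921 to 4009 and 346 to 2398. Ulk2 was not called by DESeq2 in control mice, or without a filter on low counts in Pdap1-deficient mice. Wipi1 had between 1 and 6 reads per control library with LPS-IL-4, so that counting error alone is large there.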
